A study of Mus musculus with 12 samples.

Results

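The heat shock proteins and chaperones described here are all probe sets that the platform annotation gives to exactly 1 gene whose symbol starts with Hspa, Hspb, Hspd, Hspe, Hsph, Hsp90, Dnaja, Dnajb, Dnajc or Cct and a digit, with the Hspbp and Hspbap names left out. The rule reads names only and used no measured value. It found 144 probe sets of 68 genes among 22626 probe sets that are no controls. A filter on low mean intensity over the 12 arrays was passed by 117 of the 144, from 56 genes, and by 13576 probe sets in all. The 12 genes whose probe sets all lay below the filter were Cct6b, Dnajb3, Dnajb7, Dnajb8, Dnajb13, Dnajc5b, Dnajc17, Hspa1l, Hspa12b, Hspb2, Hspb3 and Hspb7, and they were not tested. Hsp90ab1 and Dnajc6 have no probe set under this rule and were not analysed here.

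The study compared the cerebellum of Npc1-/- mice, called null here, with that of Npc1+/+ mice, called wild type, at postnatal day 21 (P21) and day 49 (P49). Npc1 encodes the membrane protein that moves cholesterol out of late endosomes and lysosomes. All 12 mice were untreated and of the strain given as BALB/c Npc1, each of the 4 groups held 3 animals, and every array carried RNA of 1 individual. The labels do not name the Npc1 allele, and they give 11 animals as female and null P49 replicate 1 as male.

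Chaperones bind proteins that are not yet folded or have lost their fold. HSP70 proteins hold short hydrophobic stretches in a cycle driven by ATP; J proteins (the Dnaja, Dnajb and Dnajc genes) bring them their clients and trigger ATP hydrolysis, and HSP110 proteins release the spent nucleotide. HSP90 completes the folding of kinases and receptors, the ring-shaped CCT complex folds actin and tubulin, and small heat shock proteins hold unfolded proteins without ATP. The transcription factor HSF1 switches on many of the cytosolic members when unfolded proteins accumulate, by binding heat shock elements, which are inverted repeats of the unit GAA. Neurons depend on several members at the synapse, where Dnajc5 (cysteine string protein) keeps the release machinery folded.

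The promoters show which members carry these elements next to their start. The upstream 250 bases of each start listed by RefSeq on GRCm38.p6 were searched on both strands; 56 of the 68 genes had an entry, with 72 starts. A pair of inverted units, GAANNTTC or TTCNNGAA, occurred in 15 of the 56 genes (26.8%) and in 14.5% of all 27025 genes with a promoter. A run of at least 3 alternating units, which overlaps such pairs by construction, was found in 3 of the 56 (5.36%), namely Dnajb6, Hspd1 and Hspe1, against 0.514% of all genes. The element of the endoplasmic reticulum (ER) stress response, CCAAT and CCACG 9 bases apart, was found in 3 of the 56 (5.36%), namely Dnajc3, Hsp90b1 and Hspa5, against 0.13% of all genes. A match describes letters and is no evidence of binding. Excerpts are printed 5′ to 3′ on the strand of the gene for some of the members whose values are described in what follows, with the element in capitals. Pairs of units in Hspb1, which has 2, and in Dnaja1, Dnajb6 and Dnajc27 are not printed, and Dnajb1 holds none. Hspe1 and Hspd1, the co-chaperonin and chaperonin of mitochondria, are read in opposite directions from one shared region and hold the same 18-base element on opposite strands (chr1:55088053-55088082, plus strand, and chr1:55088052-55088081, minus strand). Hspa1a and Hspa1b, the neighbouring stress-inducible HSP70 genes, have identical excerpts (chr17:34972242-34972271 and chr17:34959324-34959353, both minus strand). Hsph1 has 1 pair of units (chr5:149636351-149636380, minus strand), and Dnaja4 has 2 (chr9:54699458-54699487 and chr9:54699496-54699525, plus strand).
Hspe1: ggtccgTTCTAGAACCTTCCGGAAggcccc
Hspd1: gggccTTCCGGAAGGTTCTAGAAcggaccg
Hspa1a: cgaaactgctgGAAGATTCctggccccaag
Hspa1b: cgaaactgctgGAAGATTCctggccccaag
Hsph1: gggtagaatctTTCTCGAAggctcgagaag
Dnaja4, farther from the start: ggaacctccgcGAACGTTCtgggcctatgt
Dnaja4, nearer to the start: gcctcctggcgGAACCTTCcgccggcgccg

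Longer stretches are given for the promoters of Hspa5 and Hspa1b, the ER and the inducible cytosolic HSP70, because one carries the ER stress element and the other the heat shock element. The Hspa5 stretch is the 130 bases before its start (chr2:34771960-34772089, plus strand), and its element begins 65 bases before the start. The Hspa1b stretch is also 130 bases long (chr17:34959239-34959368, minus strand), and its pair of units begins 104 bases before the start. The windows of Hspb8, Hspa4 and Hspa4l hold none of these letters.
Hspa5: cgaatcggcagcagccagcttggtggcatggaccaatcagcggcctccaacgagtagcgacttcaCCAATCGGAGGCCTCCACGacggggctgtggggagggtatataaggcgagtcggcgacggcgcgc
Hspa1b: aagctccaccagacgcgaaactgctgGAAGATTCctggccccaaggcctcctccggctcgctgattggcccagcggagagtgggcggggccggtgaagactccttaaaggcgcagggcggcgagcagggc

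Values are quantile-normalized log2 intensities, log2(value + 16), and differences are log2 differences with the standard error of limma's fit over all 4 groups. A probe set is called where limma's p, adjusted over all 13576 probe sets by the method of Benjamini and Hochberg, is under 0.05. The trimmed mean intensity was 5002 on every array, so depth cannot be read from these files, and 3 arrays per group limit the precision. The Npc1 probe set, whose place relative to the null allele is not given in the sources used here, read 8.25 to 10.53 in the 6 null arrays and 11.06 to 11.75 in the 6 wild-type arrays. All 9 cerebellar marker genes with a probe set, of 10 listed, were above the filter intensity in every group. The sex-linked transcript Xist was low for the female label in 3 arrays, wild-type P21 replicate 2 (9.28) and null P21 replicates 2 and 3 (13.01 and 13.36), and high (15.63) in null P49 replicate 1, the array labelled male. The Y-linked Eif2s3y read 12.72 and 12.67 in wild-type P21 replicate 2 and null P21 replicate 3, 9.25 in null P21 replicate 2, 7.93 in the array labelled male and 4.35 to 8.91 in the other 8. Null P21 replicate 3 was thus high in Eif2s3y with an intermediate Xist value, although the labels give 1 individual per array. In null P21 replicate 2 Xist was also intermediate, but its Eif2s3y (9.25) was close to the highest of the other 8 (8.91). The sex of that animal is therefore unclear from these values. Counting it, 4 arrays are described here as going against their sex label, 3 of P21 and 1 of P49. Every comparison rests partly on such arrays. Some results are also given without the 3 P21 arrays, or without null P49 replicate 1. The counts at an unadjusted p under 0.05 moved in every comparison without the 3 P21 arrays. Those counts are not given, because that fit leaves 1 null P21 array. The counts with all 12 arrays should therefore not be read as stable.

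With age, Hspb8 and Dnaja4 rose in the null cerebellum. From P21 to P49, 4 of the 117 chaperone probe sets were called in null mice (3.42%), all 4 higher, and they were the 3 probe sets of Hspb8 and 1 of 3 of Dnaja4. In the same comparison 4.57% of all probe sets were called in either direction, which is above the members' share. Called higher were 2.12% of all, which is below the members' 3.42%. At an unadjusted p under 0.05 there were 20 members (17.1%, against 19.8% of all), and 21 had groups that do not overlap (17.9%, against 21.2% of all). The differences with age were spread evenly, 58 positive and 59 negative.

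Hspb8 encodes a small heat shock protein that works with the co-chaperone Bag3 to send misfolded proteins to autophagy. Its probe set 1417013_at read 11.14, 11.37 and 11.17 in null mice at P21 and 12.24, 12.28 and 12.20 at P49. In wild type it read 11.36, 11.40 and 11.34 at P21 and 11.81, 11.81 and 11.92 at P49. Within each genotype the P49 arrays all lay above the P21 arrays, and at P49 the 3 null arrays all lay above the 3 wild-type arrays. The rise with age in null mice was 1.01 ± 0.12 (SE, 2.02-fold, limma adjusted p = 0.000413). The other probe sets rose there by 0.94 ± 0.23 (1456434_x_at, 1.91-fold, limma adjusted p = 0.0324) and 0.90 ± 0.23 (1417014_at, 1.86-fold, limma adjusted p = 0.041). In wild type the difference with age was 0.48 ± 0.12 on 1417013_at, which did not pass (limma adjusted p = 0.15), with 0.59 and 0.45 on the other probe sets.

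The genotype differences of Hspb8 did not pass the test. At P49 1417013_at differed by 0.39 ± 0.12 between null and wild type (limma adjusted p = 0.168), and at P21 by -0.14 ± 0.12. The difference between these genotype effects, the interaction of genotype and age, was 0.53 ± 0.17 (unadjusted p = 0.00814, limma adjusted p = 0.36), the smallest p of any chaperone in that contrast. The rise in null mice is therefore not shown to exceed that in wild type. Bag3, the partner of Hspb8, differed by 0.24 ± 0.22 with age in null mice and by -0.03 ± 0.22 between genotypes at P49.

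Dnaja4 encodes a cytosolic J protein, and its gene has been described as a target of the sterol-regulated factor SREBP. Probe set 1418591_at read 11.41, 11.29 and 11.65 in null mice at P21, below all wild-type arrays of that age (11.86, 12.07 and 11.87). At P49 null mice read 12.05, 12.11 and 12.32 and wild type 12.21, 12.10 and 12.24, so the groups overlapped. The rise with age in null mice was 0.71 ± 0.14 (1.64-fold, limma adjusted p = 0.00895). Of the other Dnaja4 probe sets 1434196_at differed by 0.45 ± 0.18 and 1418592_at by 0.27 ± 0.23 with age in null mice, and neither was called. The genotype difference at P21 on 1418591_at was -0.49 ± 0.14 (limma adjusted p = 0.337), which had the smallest p among the members in that contrast and was not called. Here 1434196_at and 1418592_at differed by -0.11 and -0.21.

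Without the 3 P21 arrays that go against their sex label, 12 members were called with age in null mice, 9 higher and 3 lower, from Dnaja4, Dnajb9, Dnajc5, Dnajc27, Hsp90aa1, Hspa4, Hspa5 and Hspb8. That is 10.3% of the members, where 7.10% of all probe sets were called in the same fit. Null P21 is then a single array, whose spread is taken from the other groups. With each array left out in turn the count ran from 1 to 9. Leaving out null P49 replicate 3 left Hspb8 alone (0.855% of the members, against 2.14% of all probe sets). Leaving out null P49 replicate 1 left 2 (1.71%, against 3.41% of all). Leaving out null P21 replicate 2 gave 7 (5.98%, against 5.82% of all), and leaving out replicate 3 gave 9 (7.69%, against 8.54% of all). The Hspb8 probe set 1417013_at was called under all 23 settings run, with a rise of 0.95 to 1.10.

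Cell type markers moved with age in null mice too. Of 8 tested microglia and phagocyte markers 7 were called higher (median 2.11), with a summed intensity of 40952 to 49360 at P21 and 123606 to 156351 at P49, and Aif1 and Trem2 were under the filter intensity at P21. Of 8 Purkinje cell markers 6 were called lower (median -0.62; 718497 to 832233 at P21 and 449631 to 591537 at P49). Of 10 astrocyte markers 3 were called higher and 1 lower (334407 to 388224 at P21 and 470253 to 576472 at P49), and 2 of 8 myelin markers were called lower (median -0.43). Because the tissue was measured in bulk, fewer cells of a type and less RNA per cell cannot be told apart. The part of these cell populations in the chaperone differences with age was not tested.

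**Figure D1:**
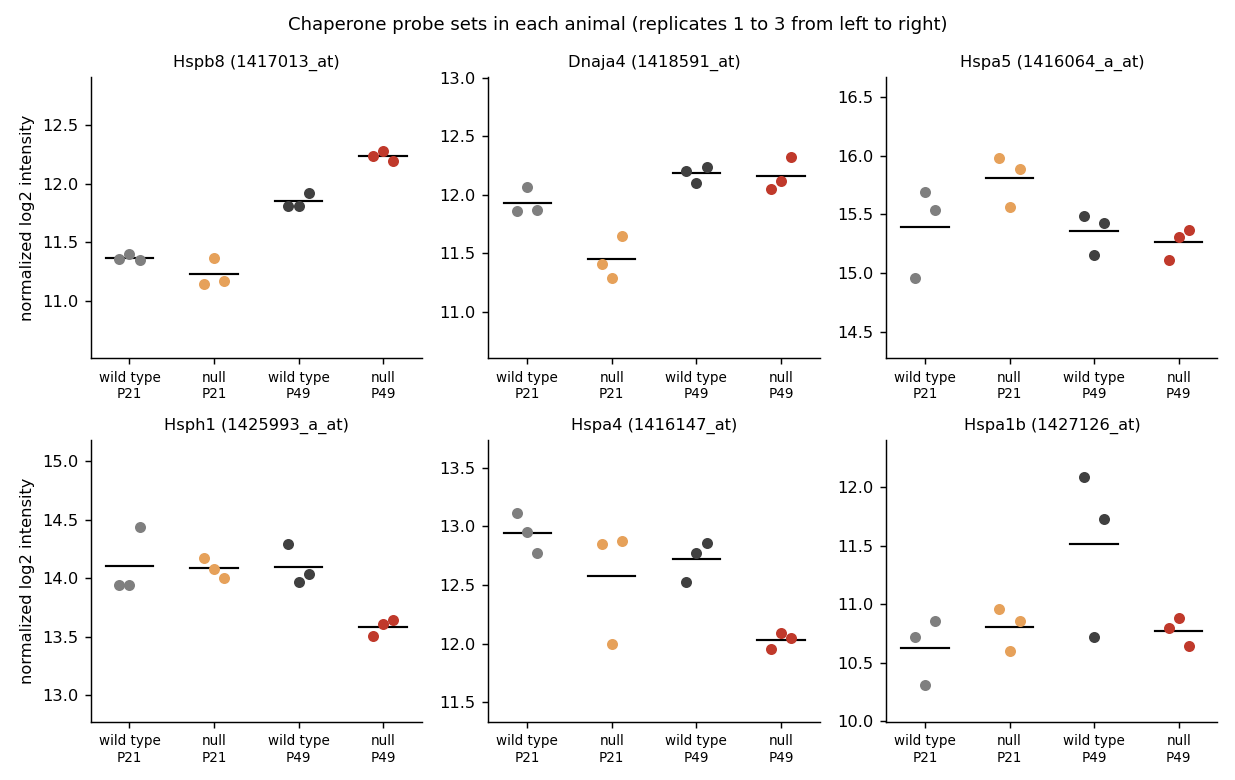
Normalized log2 intensity of 6 chaperone probe sets in each animal, by genotype and age; points are animals, lines are group means, and every panel spans the same log2 range at its own level. Hspb8 is highest in the 3 null P49 animals (12.20 to 12.28), Hsph1 and Hspa4 are lowest there among the P49 animals, and 1 wild-type P49 animal has a low Hspa1b value (10.72).

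Hspa5 and Dnajb9, the ER members with the smallest p with age in null mice, had differences of opposite sign that did not pass. Hspa5 (BiP), the HSP70 of the ER lumen, read 15.98, 15.56 and 15.89 in null mice at P21 and 15.11, 15.30 and 15.37 at P49 on 1416064_a_at. The difference was -0.55 ± 0.17 (limma adjusted p = 0.0883), and on 1427464_s_at it was -0.61 ± 0.19 (limma adjusted p = 0.0818). All null P49 values lay below all null P21 values on both probe sets. In wild type the same probe sets differed by -0.04 and -0.23 with age. Dnajb9 (ERdj4), an ER J protein induced by ER stress, had a difference of the opposite sign, 0.32 ± 0.10 (limma adjusted p = 0.0876). Hsp90b1 (Grp94), the HSP90 of the ER, differed by -0.03 and 0.24 on its 2 probe sets.

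Among 14 ER lectins, disulfide isomerases and stress factors tested beside the members, Calr alone was called with age in null mice. Calr (calreticulin), a lectin chaperone of glycoproteins, fell by 0.44 with a standard error of 0.11 (limma adjusted p = 0.0366), and the median of the list was -0.24 against -0.00 over all probe sets. Other members near the threshold with age in null mice included Hsph1 1425993_a_at (-0.50 ± 0.14, limma adjusted p = 0.054) and the mitochondrial HSP70 Hspa9, mortalin, on 1418503_at (0.43 ± 0.12, limma adjusted p = 0.0667). A second Hspa9 probe set, 1418504_at, differed by 0.16. The J protein genes Dnajc9 (1426473_at, 0.59 ± 0.17, limma adjusted p = 0.0747) and Dnajc27 (1435117_a_at, 0.40 ± 0.12, limma adjusted p = 0.0808) were higher in all null P49 arrays than in all null P21 arrays and did not pass.

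In wild-type mice limma called 0 of 117 chaperone probe sets with age, where 0.575% of all probe sets were called. At an unadjusted p under 0.05 there were 10 (8.55%, against 9.33% of all), 8 of them higher, and 20 did not overlap between ages (17.1%, against 20.7% of all). After Hspb8 the smallest p values belonged to Hspa1b 1427126_at (0.89 ± 0.28, limma adjusted p = 0.283), the J protein gene Dnajc27 (1435117_a_at, 0.35 ± 0.12, limma adjusted p = 0.336), Hspb8 1456434_x_at and Dnajb6 1429776_a_at, which had a negative difference (-0.37 ± 0.15, limma adjusted p = 0.429). Dnajb6, which keeps polyglutamine proteins from aggregating, differed by -0.03 and 0.12 on its other probe sets. The 2 age comparisons share no arrays, and the members' differences in wild type and null are plotted against each other.

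**Figure D2:**
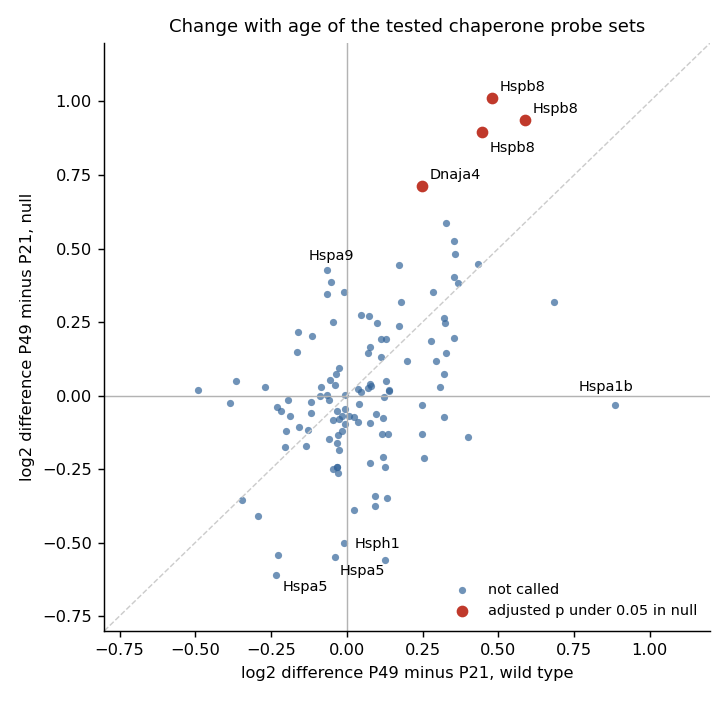
Log2 difference P49 minus P21 of the 117 tested chaperone probe sets in wild type (horizontal axis) and null mice (vertical axis); the dashed line marks equal values and red points are called in null mice. The 3 Hspb8 probe sets and Dnaja4 are positive on both axes, while Hspa1b, which is not called, lies at 0.89 in wild type and at -0.03 in null mice.

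Between genotypes no chaperone was called at either age, but most of the estimates were below 0 at P49. In the null cerebellum at P49, limma called 0 of 117 probe sets, where 2.08% of all were called. At an unadjusted p under 0.05 there were 15 (12.8%, against 10.4% of all), 13 of them lower, and 24 had groups that do not overlap (20.5%, against 22.0% of all), 21 of them lower. The 15 became 6 without wild-type P49 replicate 1 (5.13%, against 7.96% of all) and 8 without null P49 replicate 3 (6.84%, against 7.35% of all). Fitted with the 6 P49 arrays alone, 22 members had an unadjusted p under 0.05 (18.8%, against 16.7% of all). The differences were negative for 87 of 117 (74.4%, median -0.10), against 54.4% and a median of -0.02 over all probe sets. Over the 23 settings the members' share of negative differences ran from 68.1% to 75.2%. Without null P49 replicate 1, the array labelled male, 88 of 117 were negative (75.2%, against 53.6% of all). In that fit 16 had an unadjusted p under 0.05 (13.7%, against 10.7% of all) and none was called, where 2.08% of all were.

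Cell type markers differed between the same groups. At P49, 6 of 8 Purkinje cell markers were called lower in null mice (median -0.77), with a summed intensity of 449631 to 591537 against 810251 to 836299 in wild type. All 8 tested microglia and phagocyte markers were called higher (median 3.45; 123606 to 156351 against 21136 to 21444), with Aif1, Trem2, Cd68 and Mpeg1 under the filter intensity in wild type. Of 10 astrocyte markers 3 were called higher (470253 to 576472 against 353372 to 382966). None of 8 choroid plexus and meninges markers was called, but all 8 were positive (median 0.72), and their summed intensity was 111223 to 262609 in null mice against 32927 to 56590 in wild type, with Folr1 and Kl under the filter intensity in wild type. The part of these cell populations in the chaperone differences was not tested.

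The HSP110 proteins, which act as exchange factors for HSP70, had the lowest median of any role at P49. All 7 of their probe sets were negative, with a median of -0.39, where 54.4% of all probe sets were negative. An unadjusted p under 0.05 was found for 5 of the 7, and for 10.4% of all. The 7 read 3 genes, so they are not independent. Hsph1 (HSP105) read 14.29, 13.97 and 14.04 in wild type and 13.51, 13.60 and 13.64 in null mice at P49 on 1425993_a_at, so the groups did not overlap. The difference was -0.51 ± 0.14 (limma adjusted p = 0.0864), the smallest p of the 117 in this contrast, and the second probe set, 1423566_a_at, differed by -0.58 ± 0.19 (limma adjusted p = 0.197) without overlap. At P21 the same probe sets differed by -0.02 and -0.17.

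Hspa4 (Apg-2), the second HSP110 gene, gave different answers by probe set. On 1416147_at the wild-type P49 arrays read 12.53, 12.77 and 12.86 and the null arrays 11.95, 12.09 and 12.05, a difference of -0.69 ± 0.20 (limma adjusted p = 0.136). On 1435194_at it was -0.39 ± 0.25 and on 1416146_at -0.03 ± 0.13. Hspa4l (Apg-1) differed by -0.34 ± 0.12 (limma adjusted p = 0.242) and -0.33 ± 0.15 (limma adjusted p = 0.476) on its probe sets, both without overlap of the groups. Fitted with the 6 P49 arrays alone, limma called 4 members lower, of Hsph1, Hspa4 and Hspa4l, and without the 3 P21 arrays that go against their sex label it called 3, of the same 3 genes. Those are 3.42% and 2.56% of the members, where 4.15% and 3.77% of all probe sets were called in the same fits.

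**Figure D3:**
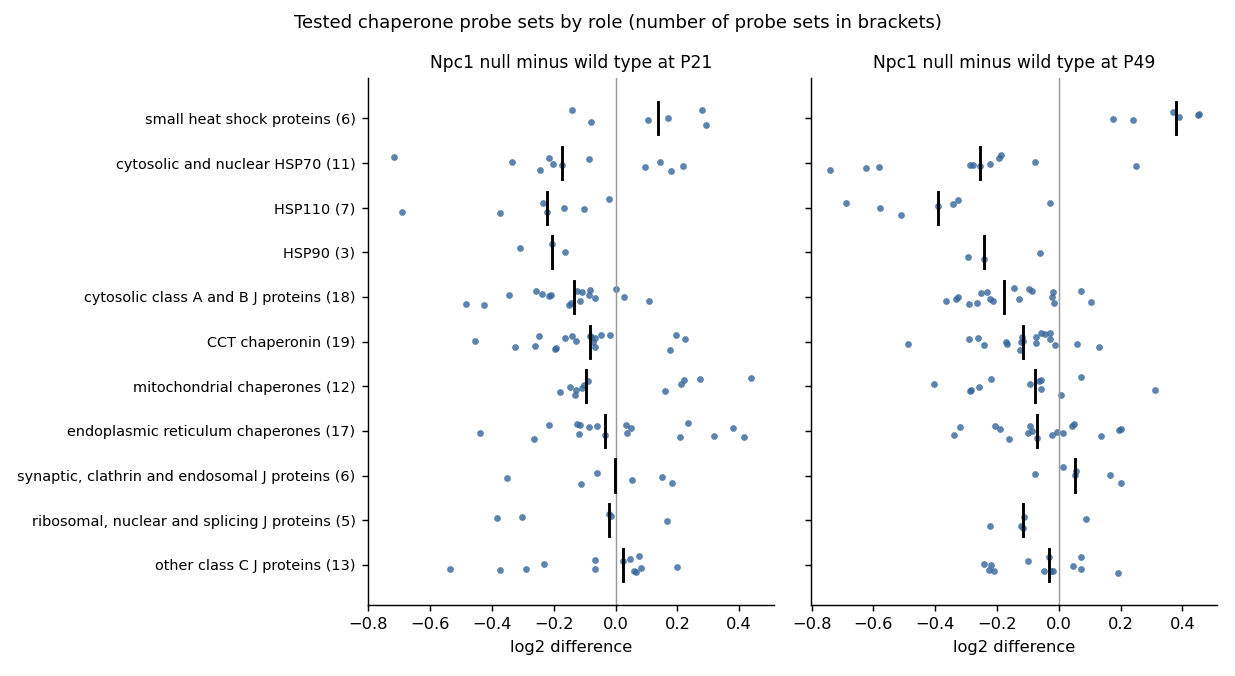
Log2 difference, null minus wild type, of each tested chaperone probe set at P21 (left) and P49 (right), grouped by role; points are probe sets and black lines are role medians. At P49 the HSP110 points all lie below 0 (median -0.39). The points labelled small heat shock proteins, which are the Hspb genes, all lie above 0 (median 0.38), while no point is called.

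The cytosolic HSP70 genes were next, with 10 of 11 probe sets negative at P49 (median -0.25). The inducible Hspa1b, made in quantity under stress, read 12.09, 10.72 and 11.73 in wild type and 10.80, 10.88 and 10.64 in null mice at P49 on 1427126_at. Its groups overlapped through wild-type replicate 2 alone, and the difference was -0.74 ± 0.28 (limma adjusted p = 0.32). The other Hspa1b probe sets differed by -0.62 and -0.58, and Hspa1a 1452388_at by -0.29 ± 0.24. These neighbouring genes are nearly identical, so a probe set of one may read RNA of the other. The constitutive Hspa8 (HSC70), an uncoating factor of clathrin, differed by -0.25, -0.08, -0.19 and -0.19 on its 4 probe sets.

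Wild-type P49 replicate 2 was also low in immediate early genes, which respond to handling and neuronal activity. Fos read 14.19, 11.37 and 14.40 in the wild-type P49 replicates 1 to 3, Nr4a1 read 12.78, 10.71 and 12.55, and Dusp1 read 14.63, 12.86 and 14.97. Null P49 mice read 13.13 to 14.49 for Fos, and 0 of 6 tested immediate early genes were called at P49 by limma. Without that array limma called 2 Hspa1b probe sets lower in null mice at P49 (differences of -1.14, limma adjusted p = 0.02, and -0.89, limma adjusted p = 0.0292). These are 1.71% of the members, where 1.28% of all probe sets were called. Neither passed in any other setting. The array was picked out by its low Hspa1b value, so leaving it out enlarges the difference by construction. No conclusion is drawn from these calls. Whether the spread of Hspa1b follows handling was not tested.

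Taking the heat-induced members as one list, 24 tested probe sets belong to 11 of 17 genes named as HSF1 targets in background knowledge. Over all 17 genes, members or not, with 1 probe set each, 14 were negative at P49 (median -0.19). Several of the 24 probe sets read the same gene, so they are not independent. With 1 probe set per gene, 10 of the 11 members were negative at P49 (median -0.29). In that fit 5 of the 11 had an unadjusted p under 0.05, where 11.3% of all genes had. At P49, 22 of the 24 were negative, 10 had an unadjusted p under 0.05, all lower, 7 had groups without overlap, all lower, and none was called. The 10 are 41.7% of the list, against 10.4% of all probe sets, and the 7 are 29.2%, against 22.0% of all in either direction and 11.7% lower. Single arrays moved the count of 10: it was 3 without wild-type P49 replicate 1, 5 without null P49 replicate 3, 6 without null P49 replicate 2 and 13 without wild-type P49 replicate 2. In the same fits 7.96%, 7.35%, 7.20% and 8.99% of all probe sets had such a p. Their median difference was -0.29, against -0.10 over all members and -0.02 over all probe sets. The exceptions were both Hspb1 (HSP25) probe sets, at 0.24 ± 0.17 and 0.45 ± 0.25. At P21, 19 of 24 were negative with a median of -0.12, but without the 3 P21 arrays that go against their sex label the count was 13 of 24 (54.2%, median -0.03). At P49 the count stayed at 22 of 24 without those arrays.

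**Figure D4:**
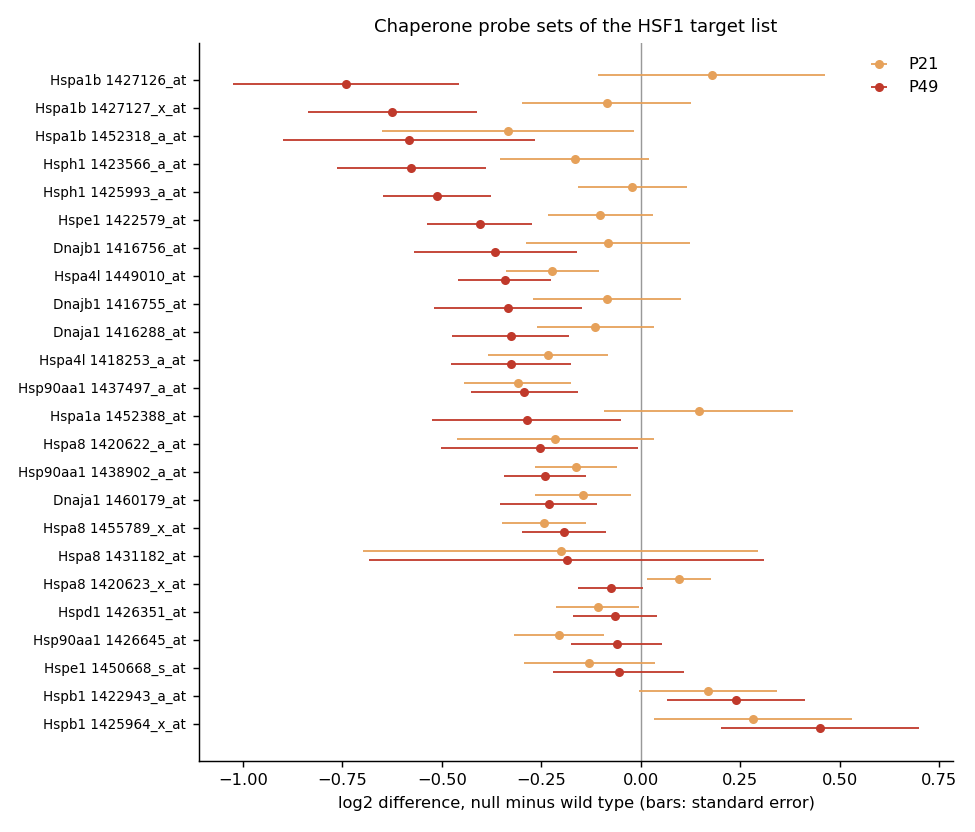
Log2 difference, null minus wild type, of the 24 tested probe sets of the HSF1 target list at P21 (orange) and P49 (red), ordered by the P49 value; bars are limma's standard errors. All P49 points apart from the 2 of Hspb1 lie below 0, from -0.74 for Hspa1b upward, and none is called.

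The list did not separate the animals by genotype. Each array's median deviation of the 24 probe sets from their 12-array means was 0.30, -0.10 and 0.15 in wild-type P49 replicates 1 to 3 and -0.07, -0.16 and -0.10 in null P49 mice. Wild-type replicate 2 thus lay within the null range, and the 2 groups overlapped. At P21 the medians were -0.02, -0.04 and 0.11 in wild type and 0.05, -0.21 and -0.04 in null mice, which also overlap. For the other 93 members the array medians ran from 0.04 to 0.07 in wild-type P49 and from -0.06 to 0.03 in null P49 mice, without overlap. The medians over all 13576 probe sets did not overlap either. They ran from 0.0138 to 0.0166 in wild-type P49 and from -0.0051 to -6e-04 in null P49 mice.

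**Figure D5:**
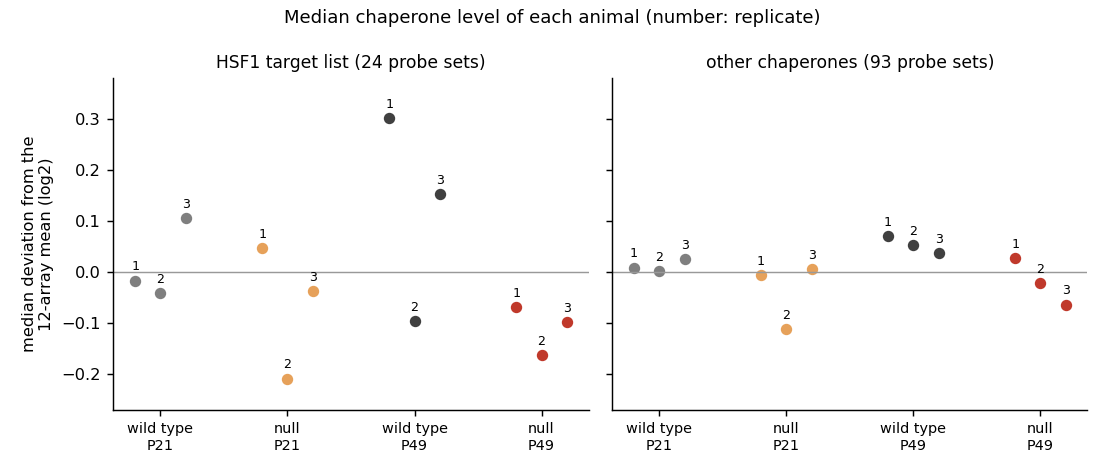
Median deviation of each array from the 12-array mean for the 24 probe sets of the HSF1 target list (left) and for the other 93 tested members (right), in log2 units; each point is 1 animal and its number is the replicate. On the left, wild-type P49 replicate 2 (-0.10) lies among the null P49 animals (-0.16 to -0.07).

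Hsp90aa1, Dnajb1 and Dnaja1 also had negative estimates at P49, and none was called. Hsp90aa1, the inducible cytosolic HSP90, differed by -0.29 ± 0.13 (1437497_a_at) and -0.24 ± 0.10 (1438902_a_at), each without overlap of the groups, and by -0.06 ± 0.11 (1426645_at). Dnajb1 (HSP40), the main J partner of inducible HSP70, differed by -0.33 ± 0.19 and -0.36 ± 0.21, and on both probe sets wild-type P49 replicate 2 (13.02 and 12.22) lay within or below the null range. Dnaja1, which also serves HSP70 in the cytosol, differed by -0.33 ± 0.15 and -0.23 ± 0.12. In the class A and B J proteins as a whole 16 of 18 probe sets were negative at P49 (median -0.18) and 15 of 18 at P21 (median -0.13).

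The medians of the mitochondrial and ER members were nearer to 0. Of 12 mitochondrial probe sets 9 were negative at P49 (median -0.08, range -0.41 to 0.31). Among these 12, 4 had an unadjusted p under 0.05, where 10.4% of all probe sets had, and none was called. Hspe1, the lid of the mitochondrial chaperonin, read 12.95, 12.91 and 12.91 in wild type and 12.73, 12.49 and 12.35 in null mice at P49 on 1422579_at. That difference was -0.41 ± 0.13 (limma adjusted p = 0.197), but 1450668_s_at gave -0.06 ± 0.16. Hspd1 (HSP60), which shares the element printed for Hspe1, differed by -0.06 ± 0.10. Hspa9 differed by 0.31 ± 0.12 on 1418503_at (limma adjusted p = 0.34) and by -0.06 on 1418504_at. For the ER the median was -0.07 with 11 of 17 negative, and Hspa5, Hsp90b1 and Dnajb9 differed by between -0.34 and 0.01.

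The CCT ring had small differences that were mostly negative. At P49, 17 of 19 probe sets of 7 subunit genes were negative (median -0.12), and at P21 16 of 19 were (median -0.08); none was called at either age. Subunits share one complex, so their probe sets are not independent, and the list of prefoldin and phosducin-like partners had a median of -0.15 at P21 and -0.01 at P49.

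The tested Hspb genes, shown in the figure as small heat shock proteins, lay on the other side of 0. The group was formed by symbol, which does not establish that each gene, Hspb11 included, encodes such a protein. All 6 tested probe sets of Hspb1, Hspb8 and Hspb11 had positive differences at P49 (median 0.38, range 0.18 to 0.45), and none was called. Hspb1, which binds unfolded proteins and actin filaments, read 11.47, 11.31 and 11.61 in wild type and 11.42, 12.22 and 12.11 in null mice on 1425964_x_at, so the groups overlapped. Cryab (alpha B crystallin), a relative outside the naming rule, differed by 0.12 ± 0.18. Of the 12 small heat shock probe sets 6 were below the filter, so this group covers only part of the family.

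Between genotypes no probe set of the synaptic member Dnajc5 passed the test. With age in null mice Dnajc5 was called only under some alternatives to the fit with all arrays. Its 5 probe sets differed at P49 by -0.08 to 0.17 and at P21 by -0.35 to 0.18, with standard errors of 0.09 to 0.22, and none had an unadjusted p under 0.05. A change of the size of those errors would not be detectable with 3 animals per group.

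At P21 limma called 0 of 117 chaperone probe sets, where 0.0810% of all were called. At an unadjusted p under 0.05 there were 10 (8.55%, against 9.83% of all), 8 of them lower, and 15 had groups that do not overlap (12.8%, against 11.7% of all). After Dnaja4 the smallest p values belonged to Cct3 1459987_s_at (-0.32 ± 0.11, limma adjusted p = 0.407), Cct6a 1455988_a_at (-0.26 ± 0.09, limma adjusted p = 0.416), Hspa4 1435194_at (-0.69 ± 0.25, limma adjusted p = 0.438) and the mitochondrial J protein gene Dnajc30 (0.44 ± 0.16, limma adjusted p = 0.449). Hspa5 differed by 0.42 ± 0.17 on 1416064_a_at but by 0.04 ± 0.19 on 1427464_s_at. The share of negative differences was 67.5% (79 of 117), against 51.2% of all. It was 57.3% (67 of 117) without the 3 P21 arrays that go against their sex label. Without null P21 replicate 2 alone it was 56.4% (66 of 117), against 49.7% of all. All 8 myelin and oligodendrocyte markers were also negative at P21 (median -0.50; 440745 to 491690 in null mice against 474062 to 566497 in wild type, which overlap), and none was called. Of 8 tested microglia and phagocyte markers 3 were called higher (median 1.17; 40952 to 49360 against 20317 to 27182). The part of these markers in the members' differences at P21 was not tested.

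The change of the genotype difference from P21 to P49 was called for 0 of 117 members by limma, where 0.427% of all were called. There were 6 at an unadjusted p under 0.05 (5.13%, against 7.71% of all). After Hspb8 they were led by Hspa9 1418503_at (0.49 ± 0.17, limma adjusted p = 0.446), Hsph1 1425993_a_at (-0.49 ± 0.19, limma adjusted p = 0.536), Dnaja4 1418591_at (0.46 ± 0.19, limma adjusted p = 0.575) and Cct7 1415817_s_at (-0.47 ± 0.20, limma adjusted p = 0.584). No chaperone is shown to differ in its genotype effect between the ages.

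Genes that work with the chaperones were counted from fixed lists, with 1 probe set per gene. None of 13 HSP90 co-chaperones was called in any of the 5 comparisons (median at P49 -0.06), and Ahsa1, which speeds up the HSP90 ATPase, differed by -0.31 ± 0.13 at P21 and -0.19 ± 0.13 at P49. None of 13 HSP70 co-chaperones and exchange factors was called (median at P49 -0.06). Of 10 chaperones under other names none was called, including Trap1, the HSP90 of mitochondria (-0.31 ± 0.11 at P49, limma adjusted p = 0.271), and the CCT subunit Tcp1 (-0.04 ± 0.09). Only 2 of the HSF factors and their regulators passed the filter, and Hsf2 was below it.

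Several probe sets of one gene often disagreed. Of the 36 member genes with more than 1 tested probe set, all probe sets had the same sign in 25 at P49 and in 22 at P21, and in 21 with age in null mice. A sign on 1 probe set is therefore a weak description of its gene.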

How the data were processed

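RNA of 12 cerebella, 1 animal per array and 3 per group, was measured on Affymetrix arrays. The authors deposited 1 linear intensity per probe set; how probes were summarised and scaled is not given in the sources used here. Probe sets were named from the platform annotation, updated by gene identifier. Intensities were transformed as log2(value + 16) and quantile-normalized, and probe sets under the 40th percentile of mean level (intensity 959) were left out. limma 3.58.1 in R 4.3.3 (lmFit, then eBayes with a trend) fitted 4 group means over 13576 probe sets and 5 contrasts, two-sided, with Benjamini-Hochberg adjustment within each. The fit was tested on simulated data. Members and gene lists were chosen with earlier results of these data known. In each comparison the called members were named, or the 5 with the smallest p, together with a fixed set of chaperones and, from the other lists, called genes. Partner genes named beyond these, and the genes of single arrays, were chosen after their values were seen. Further markers were listed for granule neurons, myelin, endothelium, choroid plexus and meninges, blood and brainstem neurons; at P49 these gave 0, 0, 0, 0, 0 and 1 called genes. Time point labels were used, although a protocol text gives P21 for all animals. Alternatives changed the scale, pseudocount, filter, arrays and replicate block. Replicate numbers did not pair animals: over 18 same-number pairs the correlation of deviations ran from -0.29 to 0.17. p-values measure the spread between individual animals.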

Additional observations from a re-analysis of the deposited data

How the results depend on the processing

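No member was called at P21, in the interaction or with age in wild type under any alternative run. For genotype at P49 the count of called members was 0 with all arrays, 4 with only the arrays of the groups compared, 3 without the 3 P21 arrays that go against their sex label, and 0 to 2 with each array left out (1 when wild-type P21 replicate 3 was left out, and 2 when either null P21 replicate 2 or wild-type P49 replicate 2 was). For age in null mice it was 4 with all arrays, 2 with no filter, 1 with only the arrays of the groups compared, 1 with a gene's probe sets averaged, 12 without those 3 arrays, 3 with the replicate block, and 1 to 9 with each array left out. With age in null mice the share called of all probe sets moved too. It was 2.47% with no filter, against 1.39% of members. With only the arrays of the groups compared it was 1.26%, against 0.862%, and with probe sets averaged 5.69%, against 1.92%. With the replicate block it was 3.99%, against 2.56%. For genotype at P49, 1.71% of members were called without null P21 replicate 2 or without wild-type P49 replicate 2. Of all probe sets 3.34% and 1.28% were. The causes of these shifts were not tested. The replicate block changed no other count of calls. Dnaja4 1418591_at passed in 20 of 23 settings, with limma adjusted p from 0.00609 to 0.0975. None of the 4 probe sets called with all arrays changed sign in any setting. The percentages of negative differences were added after seeing the data, and those of the HSF1 target list at P21 ran from 54.2% to 90.0%. For the interaction, the arrays of the groups compared are all 12, so that alternative gives no further value. Dim probe sets lack a detection call here, so their differences are uncertain.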
